A study of Mus musculus with 12 samples.

Results

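DNA replication and S phase entry are represented here by 38 genes, taken by symbol from a list of genes of known function that was drawn up with earlier results of these data known. All 38 were found among the 23337 gene symbols counted in every library, and all 38 passed the filter on low counts that kept 12038 genes for testing. The RNA was that of regulatory T cells (Treg) taken from 8-week-old C57BL/6 mice. Natural Treg (nTreg) were CD4+GFP+ cells sorted from spleen and lymph nodes, and induced Treg (iTreg) were CD4 T cells that had been kept for 5 days with IL2 and TGFbeta before GFP-positive cells were taken. Each kind had 3 libraries labelled WT (Hrd1 +/flox, FoxP3-cre+-GFP) and 3 labelled KO (Hrd1 flox/flox, FoxP3-cre+-GFP). Every group thus carried the Cre that is driven by Foxp3, and the WT-labelled animals also carried a floxed allele of Hrd1. Hrd1, whose symbol in the files is Syvn1, codes for an endoplasmic reticulum ubiquitin ligase. The labels do not say that replicates came from separate mice or cultures, so the p-values measure only the spread between libraries, which may be technical in part.

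Cells prepare for replication in G1, when the origin recognition complex (Orc1, Orc6), Cdc6 and Cdt1 load the ring of Mcm2 to Mcm7 onto DNA. In S phase Mcm10, Cdc45 and the GINS complex turn the loaded ring into the active helicase, primase and the replicative polymerases copy the strands, and Pcna holds the polymerases on DNA after the Rfc complex has loaded it. Many of these genes are targets of E2F transcription factors, which are held back by the retinoblastoma protein in resting cells. Cyclin E and its kinase take part in the release of E2F. In a bulk sample, fewer cells in cycle and less of these RNAs per cell cannot be told apart.

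Total counts ran from 6763458 to 15462894 reads per library. The 38 genes together took 0.162% ± 0.0165 of the reads in WT-labelled nTreg, 0.185% ± 0.0194 in KO-labelled nTreg, 0.768% ± 0.0925 in WT-labelled iTreg and 0.666% ± 0.0180 in KO-labelled iTreg (SD, n = 3 in each). Syvn1 stood at 73.7, 87.2 and 75.5 CPM (reads scaled to the library total, with TMM normalisation) in WT-labelled nTreg and at 145.5, 136.8 and 129.7 in KO-labelled nTreg, which is the opposite of what the KO label would give. The iTreg libraries labelled WT had 61.6, 72.2 and 101.2 CPM of it and those labelled KO 54.6, 73.1 and 63.1, and these groups overlapped. A gene count covers all exons and so does not check the deletion, and groups are therefore named by their label throughout. Foxp3 was present in all 12 libraries, at 191 to 668 CPM. Some libraries stood apart, here by CPM scaled to the library total alone. The 10 macrophage and myeloid markers summed to 222 and 493 CPM in the nTreg libraries numbered 2, with WT and KO label, against 42.7 to 92.8 in the other 4 nTreg libraries and 3.62 to 5.90 in iTreg, where 5 of the 10 had no read in each group. The 6 B cell markers summed to 27.8 to 33.7 CPM in WT-labelled nTreg and 16.6 to 17.5 in KO-labelled nTreg, and to at most 3.03 in iTreg. The 5 erythroid genes summed to 3.13 to 4.61, 8.91 to 36.3 and 0 in the same order, with Hba-a1 and Hbb-b1 at 0 in every group. Xist, which marks female cells, was at 723 CPM in WT-labelled nTreg 3, 486 in KO-labelled nTreg 3 and 2035 in WT-labelled iTreg 2, and at most at 0.232 elsewhere. Ddx3y, a Y-linked gene, was at 0 in WT-labelled iTreg 2 and present in the other 11 libraries. It was at 102 CPM in WT-labelled nTreg 3 and 142 in KO-labelled nTreg 3, so these libraries held both sex markers. The libraries within WT-labelled nTreg, within KO-labelled nTreg and within WT-labelled iTreg thus did not all come from the same animals. Xist and Ddx3y do not tell the KO-labelled iTreg libraries apart. The part of these differences in the results below was not tested, except that counts are given without the libraries concerned.

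Levels of the members were compared per kilobase of exon, as normalised CPM divided by the length of all exons of the gene. Mcm6, a subunit of the helicase ring, had the highest level of the 38 in all 4 groups, with 40.7 ± 2.22 CPM per kb in WT-labelled nTreg, 44.9 ± 2.52 in KO-labelled nTreg, 179 ± 7.62 in WT-labelled iTreg and 161 ± 8.11 in KO-labelled iTreg. Mcm4 (39.7 ± 4.92) and Pcna (35.3 ± 7.496) followed in WT-labelled nTreg and lay within their spread of Mcm6. The other ring subunits, which enter the complex in equal number, ranged from 15.3 ± 1.32 for Mcm2 and 16.6 ± 1.95 for Mcm7 to 24.8 ± 3.31 for Mcm3. The exon length behind these levels was 6956 bases for Mcm2 and 3752 for Mcm3. Before division by it, Mcm2 had a mean of 106.5 CPM and Mcm3 92.9 in WT-labelled nTreg. The order of members per kb thus depends in part on the annotated exon length. Origin licensing and helicase activation also held the lowest levels. Orc1, the cell cycle regulated subunit of the origin recognition complex, was last with 0.692 ± 0.279, next to Mcm10 with 0.802 ± 0.294 CPM per kb, and these neighbours did not differ beyond their spread. Counts were small at this end of the range: Orc1 had as few as 14 reads in a WT-labelled nTreg library and 25 in a KO-labelled one, and 7 members had under 50 reads in at least 1 WT-labelled nTreg library. In iTreg no member had fewer than 261 reads, so fold changes of Orc1, Mcm10 and the like are limited by the nTreg counts.

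**Figure D1:**
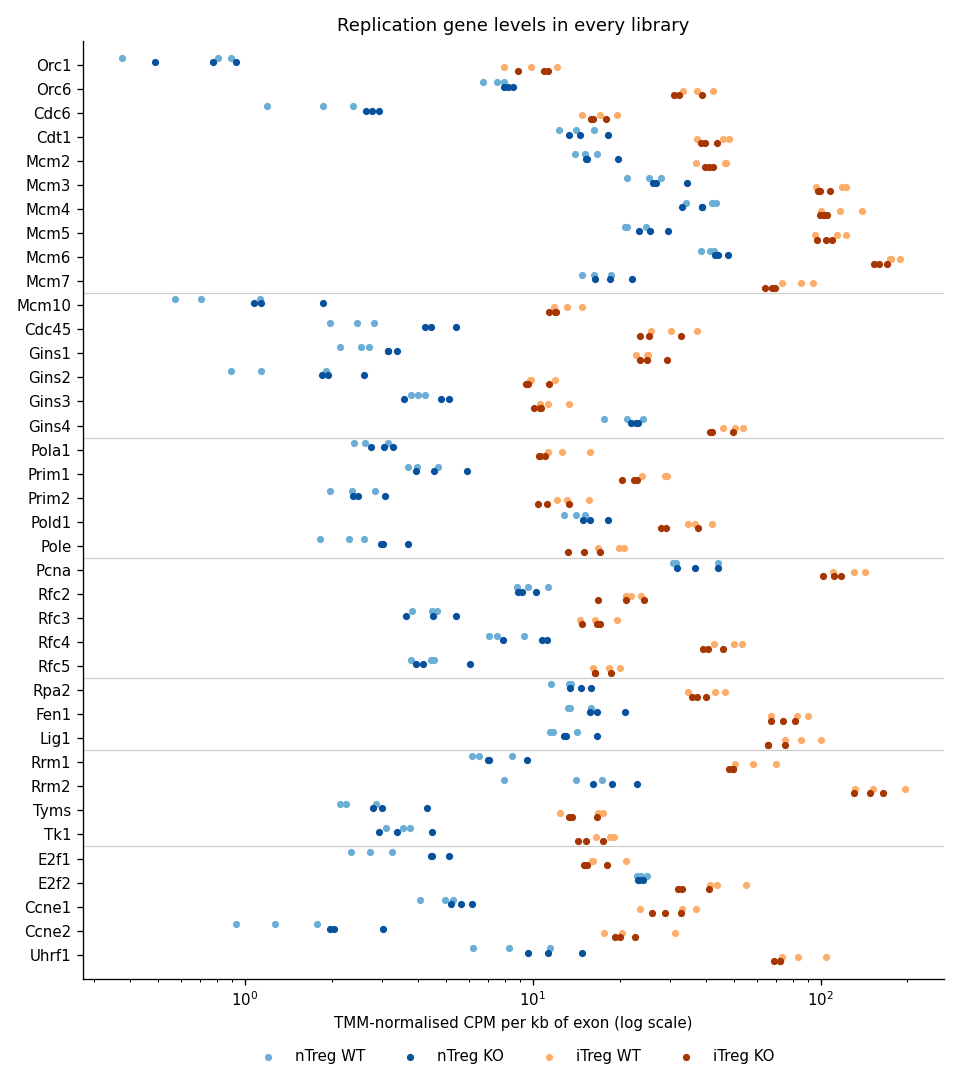
Level of each of the 38 genes in every library, as TMM-normalised CPM per kb of exon on a log scale; each point is a library, colours mark the 4 groups, and grey lines separate the roles from origin licensing at the top to S phase entry at the bottom. The iTreg points lie to the right of the nTreg points for every gene, and Mcm6 is furthest right within each group on average.

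The order of the members changed between the kinds of Treg. Rrm2, the regulated subunit of ribonucleotide reductase, went from rank 13 in WT-labelled nTreg (13.1 ± 4.75 CPM per kb) to rank 2 in WT-labelled iTreg (159.6 ± 32.7). Uhrf1, which recruits the maintenance DNA methyltransferase to new strands, went from rank 17 to rank 7. E2f2 moved the other way, from rank 5 (23.9 ± 0.903) to rank 14 (46.6 ± 7.41). Orc1 stayed last in WT-labelled cells of both kinds.

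The comparison of iTreg with nTreg asked how the kinds of Treg differ at the same label. All iTreg libraries came from cultured cells and all nTreg libraries from cells sorted from tissue. Kind of Treg and culture therefore cannot be told apart here. Every one of the 38 genes was higher in iTreg, both between WT-labelled and between KO-labelled libraries, at an adjusted p under 0.05 (quasi-likelihood test of edgeR, Benjamini-Hochberg adjusted over all genes tested). Of all genes tested, 34.8% were called higher and 30.4% lower in WT-labelled iTreg, and 32.1% higher and 29.8% lower in KO-labelled iTreg. The libraries of the groups did not overlap for any of the 38 members at either label, where 37.4% and 34.1% of all genes were higher and 33.9% and 32.8% lower without overlap. The median log2 fold change of the members was 2.44 (5.43-fold) at the WT label and 2.05 (4.15-fold) at the KO label, against 0.05 and 0.01 for all genes tested. The 38 calls at each label were also made without the nTreg libraries numbered 2 and without the 3 libraries with Xist, where 26.4% to 30.6% of all genes were called higher. Sums over the members gave 1805, 1476 and 1598 CPM in WT-labelled nTreg and 6730, 8617 and 7762 in WT-labelled iTreg. KO-labelled libraries had 2073 (nTreg 1), 1682 and 1749 against 6686, 6981 and 6536. In these sums the lowest iTreg library was thus above 3 times the highest nTreg library.

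**Figure D2:**
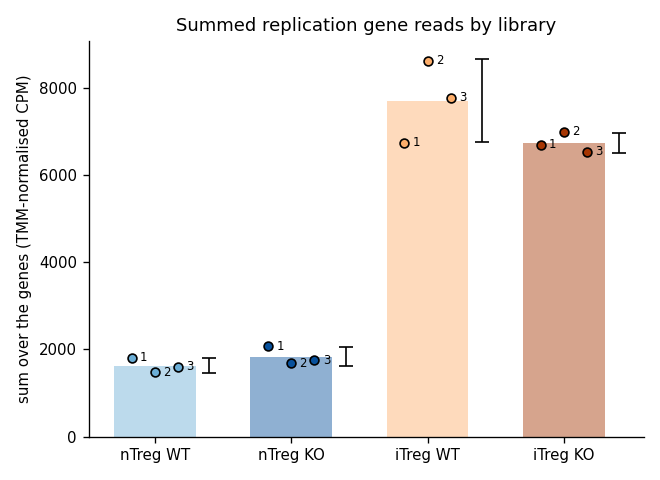
Summed TMM-normalised CPM of the 38 genes in each library; bars start at 0 and show the group mean, numbered points are the libraries, and the bar at the side is the SD (n = 3). Means were 1626, 1834, 7703 and 6734 CPM from left to right, and no iTreg library came near the nTreg range.

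Origin licensing genes had a median log2 fold change of 2.25 at the WT label and 1.83 at the KO label. Mcm6 gave the smallest p of all members in WT-labelled cells, with 199, 178 and 193 CPM in nTreg and 812, 877 and 820.5 in iTreg. This was a log2 fold change of 2.14 (SE 0.0923, adjusted p = 1.4e-08 by edgeR). In KO-labelled cells Mcm6 had 223, 201 and 206 CPM in nTreg and 791, 716 and 742 in iTreg, a change of 1.84 (SE 0.0913, adjusted p = 5.6e-08 by edgeR). The libraries within each group were close together, and the groups were far apart. Orc6, a small subunit of the origin recognition complex, had 19.6, 16.6 and 18.6 CPM in WT-labelled nTreg and 81.8, 104 and 91.9 in WT-labelled iTreg, a log2 fold change of 2.34 (SE 0.13). At the KO label it had 21.1, 19.7 and 20.3 and 76.5, 95.3 and 79.8 CPM, a change of 2.04 (SE 0.12). Orc6 shares 171 bases of exon with Vps35 on the other strand, and the sources used here do not say whether strand was used in counting. Mcm5, another ring subunit, had 118, 93.6 and 102 CPM in KO-labelled nTreg and 416, 438 and 389 in KO-labelled iTreg, a change of 1.99 (SE 0.13). The ring subunits did not rise by the same amount: Mcm2 (1.503, SE 0.13) and Mcm4 (1.58, SE 0.13) had smaller log2 fold changes in WT-labelled cells than Mcm5 (2.31, SE 0.13) and Mcm7 (2.34, SE 0.14), a contrast between genes that was not tested. Orc1, shown by library although its p was not among the smallest, had the largest change of the licensing genes, 3.90 (SE 0.31) at the WT label and 3.86 (SE 0.30) at the KO label, from 2.81, 3.11 and 1.303 CPM in WT-labelled nTreg to 27.5, 42.3 and 34.3 in WT-labelled iTreg. Cdc6, the loader of the ring, rose by 3.24 and 2.58, and its partner Cdt1 by 1.62 and 1.40, at the WT and the KO label.

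Helicase activation had the highest median of the roles at both labels, 3.15 and 2.40. Gins1, a GINS subunit, had 3.25, 3.82 and 4.09 CPM in WT-labelled nTreg and 37.7, 38.04 and 34.7 in WT-labelled iTreg, a log2 fold change of 3.29 (SE 0.15, adjusted p = 2e-08 by edgeR). KO-labelled libraries had 4.75, 5.103 and 4.75 CPM in nTreg and 37.7, 44.5 and 35.6 in iTreg, a change of 3.004 (SE 0.14, adjusted p = 4.3e-08 by edgeR). Both nTreg groups thus lay under 6 CPM and both iTreg groups above 30. Cdc45, which joins GINS and the ring in the active helicase, had 8.57, 6.94 and 9.86 CPM in WT-labelled nTreg and 90.2, 130.0 and 106 in WT-labelled iTreg, a change of 3.67 (SE 0.20, adjusted p = 4.6e-08 by edgeR). At the KO label its change was 2.54 (SE 0.18), from a higher nTreg level. Mcm10 rose by 4.06 (SE 0.25) and 3.13 (SE 0.23). The GINS subunits spread widely: Gins2 rose by 3.01 and 2.26, Gins3 by 1.56 and 1.23, and Gins4 by 1.248 and 0.97. Gins2 shares 2758 bases of exon with Gse1 on the other strand, which makes its own level uncertain. Gse1 was lower in iTreg, with 110.4 to 132 CPM in WT-labelled iTreg against 156 to 166 in WT-labelled nTreg.

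Among primase and the polymerases the medians were 2.52 and 2.15. Pole, the catalytic subunit of the leading strand polymerase, had 28.95, 20.4 and 25.6 CPM in WT-labelled nTreg and 188, 223 and 232 in WT-labelled iTreg, a log2 fold change of 3.10 (SE 0.16, adjusted p = 3.5e-08 by edgeR). The lowest iTreg library was far above the highest nTreg library. Pold1, the catalytic subunit of the lagging strand polymerase, changed less, by 1.43 (SE 0.14) and 0.95 (SE 0.13). Pola1, which starts new strands together with primase, rose by 2.29 and 1.83, and the primase subunits Prim1 and Prim2 by 2.72 and 2.52 at the WT label and by 2.20 and 2.15 at the KO label.

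The sliding clamp and its loader had the lowest role median at the WT label, 1.97, and 1.84 at the KO label. Pcna rose by 1.85 (SE 0.17) and 1.56 (SE 0.17). Of the loader subunits Rfc2 changed least, by 1.17 and 1.14, and Rfc4 most, by 2.61 and 2.08. Rfc2 shares 952 bases of exon with Lat2 on the other strand. Of the factors that coat and join the lagging strand, Lig1, the ligase of Okazaki fragments, had 60.6, 48.97 and 49.97 CPM in WT-labelled nTreg and 320.1, 429 and 363 in WT-labelled iTreg, a log2 fold change of 2.80 (SE 0.15, adjusted p = 4.7e-08 by edgeR). KO-labelled libraries had 71.5, 55.6 and 54.6 and 279, 321 and 281 CPM, a change of 2.28 (SE 0.15, adjusted p = 2.4e-07 by edgeR). Every iTreg library was above every nTreg library here as for the other members. Fen1, the flap nuclease, rose by 2.49 and 2.07, and Rpa2, a subunit of the single strand binding protein, by 1.69 and 1.36. On the other strand, Fen1 shares 1909 bases of exon with Gm10143 and 130 with Tmem258, and Lig1 shares 247 with Zswim9. Overlaps of this kind are also present for Orc1, Pole, Rfc4, Rfc5 and Tk1.

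The genes of nucleotide supply had medians of 2.89 and 2.39. Rrm1, the large subunit of ribonucleotide reductase, had 105, 77.1 and 77.8 CPM in KO-labelled nTreg and 544, 529.6 and 548 in KO-labelled iTreg, a log2 fold change of 2.64 (SE 0.17, adjusted p = 2.2e-07 by edgeR). At the WT label it rose by 3.08 (SE 0.17). Rrm2 rose more, by 3.603 (SE 0.26) and 2.94 (SE 0.25). Tyms, thymidylate synthase, rose by 2.69 and 2.13, and Tk1, thymidine kinase, by 2.39 and 2.14. A pseudogene of Tyms, Tyms-ps, is also listed in the files, and how reads were divided between them is not given in the sources used here. Among the genes of S phase entry the range was widest at the WT label. Ccne2 and Ccne1, which code for cyclin E, rose by 4.08 (SE 0.28) and 2.70 (SE 0.18) at the WT label and by 3.15 and 2.37 at the KO label. Ccne2 shares 609 bases of exon with Ints8 on the other strand, and it had as few as 23 reads in a WT-labelled nTreg library. E2f1 rose by 2.67 and 1.80. E2f2 had the smallest change of all 38 members at both labels, 0.97 (SE 0.13) and 0.59 (SE 0.12, adjusted p = 0.0015 by edgeR), from a level of 113, 116 and 121 CPM that was already high in WT-labelled nTreg. Uhrf1 rose by 3.34 and 2.58.

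**Figure D3:**
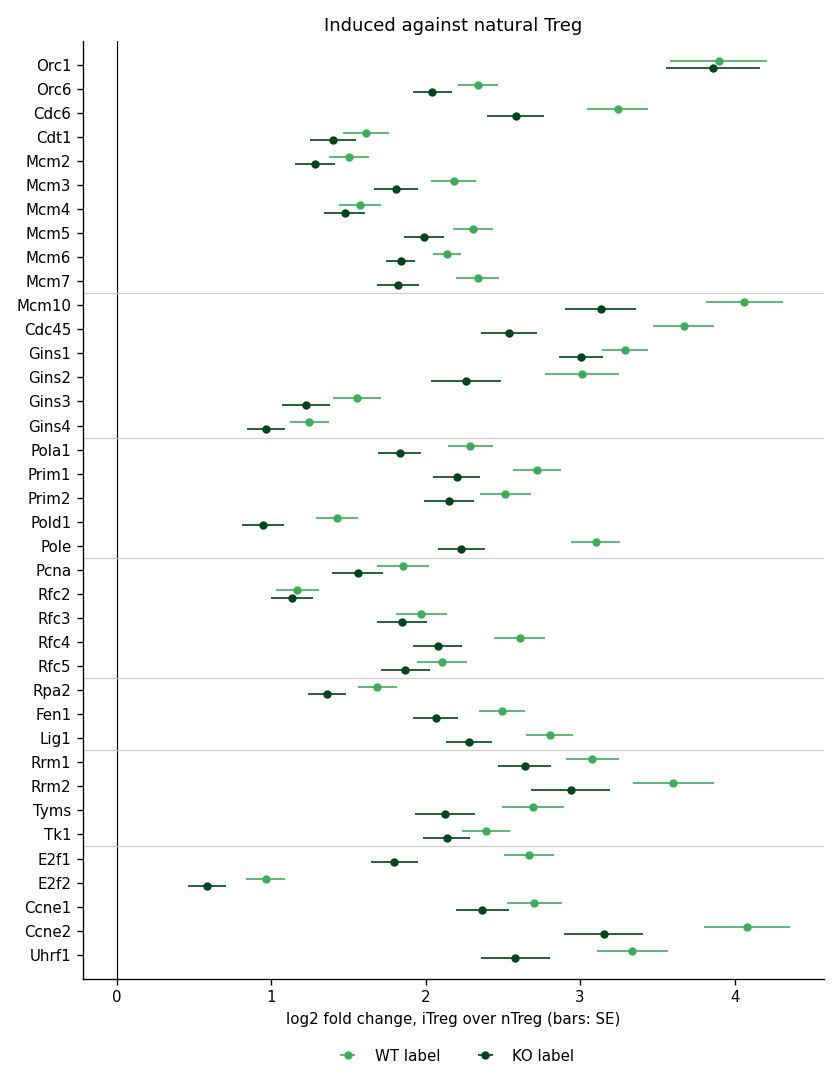
Log2 fold change of each gene in iTreg over nTreg at the WT label (light) and the KO label (dark), with bars for the SE; grey lines separate the roles. All 38 genes lie above 0 at both labels, from 0.59 for E2f2 at the KO label to 4.08 for Ccne2 at the WT label.

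Promoters of the members were read for E2F sites because these genes rose together and E2F is their textbook regulator. RefSeq promoters (GRCm38.p6, 250 bases before to 50 after the listed start) were matched by symbol for 30 of the 38 members, 36 promoters in all. The E2F site was searched on both strands in 4 spelled forms of 8 letters: TTTGGCGC, TTTGCCGC, TTTCGCGC and TTTCCCGC. At least 1 form was found in 14 of the 30 members (46.7%), against 704 of 27025 genes (2.6%) with promoters in the same table. Counted by promoter, 744 of all 32851 promoters (2.26%) held it. The 14 were Orc1, Cdc6, Cdt1, Mcm3, Mcm5, Mcm6, Mcm7, Gins3, Pola1, Pold1, Rfc3, Lig1, E2f2 and Uhrf1. TTTCGCGC was found in 7 members, TTTGGCGC and TTTCCCGC in 6 each and TTTGCCGC in none. The box CCAAT stood in 19 of the 30 (63.3%), against 41.1% of all genes, and TTTGAA, a form of the cell cycle homology region, in 5 (16.7%), against 20.2%. The listed start lay within 150 bases of the start of the GENCODE gene for 26 of the 30, by the nearest promoter of each. For E2f1 it lay 466 bases inside the gene, so the upstream promoter of E2f1 was not covered. Some of the 14 had their form in a promoter whose start also lay well inside the gene. That start was 350 bases inside for Cdc6, 539 for Mcm7, 992 for Uhrf1 and 1543 for Lig1.

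Sequences are printed for 4 members with a match and 1 without, each 5′ to 3′ in the direction of its gene, with the E2F forms in capitals. Mcm6 (chr1:128359656-128359955, minus strand) held the most forms, 3, with 2 that overlap on opposite strands. Mcm5 (chr8:75109259-75109558, plus strand) had the same kind of overlapping pair. Rfc3 (chr5:151651159-151651458, minus strand) had 2 forms beside its start. E2f2 (chr4:136172024-136172323, plus strand), with the smallest rise of the 38, had 1 form after its start. Cdc45 (chr16:18811923-18812222, minus strand), with one of the larger rises, had none of these letters in its window.
Mcm6: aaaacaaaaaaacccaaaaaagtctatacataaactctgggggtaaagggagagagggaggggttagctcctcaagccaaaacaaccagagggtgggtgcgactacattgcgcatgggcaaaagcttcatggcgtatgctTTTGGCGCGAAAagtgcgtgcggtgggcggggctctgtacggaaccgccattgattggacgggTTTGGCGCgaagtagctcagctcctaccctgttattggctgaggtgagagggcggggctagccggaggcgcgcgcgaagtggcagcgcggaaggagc
Mcm5: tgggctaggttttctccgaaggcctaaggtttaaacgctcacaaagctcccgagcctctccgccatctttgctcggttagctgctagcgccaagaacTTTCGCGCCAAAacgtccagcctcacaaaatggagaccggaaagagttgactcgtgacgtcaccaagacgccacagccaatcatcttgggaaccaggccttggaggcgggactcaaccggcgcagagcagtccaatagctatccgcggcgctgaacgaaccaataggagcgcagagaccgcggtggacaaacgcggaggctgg
Rfc3: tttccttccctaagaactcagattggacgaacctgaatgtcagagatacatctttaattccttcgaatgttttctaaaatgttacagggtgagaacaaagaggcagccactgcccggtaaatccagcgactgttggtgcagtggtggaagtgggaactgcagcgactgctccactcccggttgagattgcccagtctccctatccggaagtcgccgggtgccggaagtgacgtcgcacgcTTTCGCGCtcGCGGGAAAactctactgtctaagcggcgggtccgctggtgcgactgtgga
E2f2: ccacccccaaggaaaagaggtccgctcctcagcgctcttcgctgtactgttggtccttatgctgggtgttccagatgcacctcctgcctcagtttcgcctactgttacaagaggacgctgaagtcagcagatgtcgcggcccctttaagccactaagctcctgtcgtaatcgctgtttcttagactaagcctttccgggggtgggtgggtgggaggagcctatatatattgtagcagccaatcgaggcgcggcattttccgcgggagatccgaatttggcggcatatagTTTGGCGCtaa
Cdc45: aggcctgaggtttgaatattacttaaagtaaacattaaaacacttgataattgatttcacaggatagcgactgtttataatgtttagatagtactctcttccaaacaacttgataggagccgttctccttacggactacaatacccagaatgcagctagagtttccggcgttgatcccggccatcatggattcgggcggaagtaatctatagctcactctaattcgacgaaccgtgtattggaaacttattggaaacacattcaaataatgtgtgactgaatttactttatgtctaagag
Orc1 (3.90 in WT-labelled cells) and E2f2 (0.97) both held a form, and Mcm10 (4.06) and Mcm2 (1.503) held none. These genes were picked with their values in view, and whether the rise differs between members with and without a form was not tested. The window of Mcm10 ended in TTTGGCG, so a form that runs past its end would not have been found. A match describes the letters only.

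The wider replication programme was followed in 5 other lists. Of 38 other replication genes, 31 were higher and 3 lower in iTreg at either label by edgeR, with medians of 1.29 and 1.27. The smallest p belonged to Ticrr (listed as 5730590G19Rik), which is needed to load Cdc45, at 3.69 and 2.77. The 3 that fell were Tk2 (−1.80 and −1.52), Rrm2b (−1.78 and −1.16) and Samhd1 (−0.91 and −0.70), named after their values were seen. Tk2 makes thymidine nucleotides in mitochondria, Rrm2b is the small subunit of ribonucleotide reductase that p53 induces, and Samhd1 breaks down deoxynucleotides. All 11 genes of replication-coupled chromatin assembly were higher (medians 1.52 and 1.40), among them Chaf1a, a histone chaperone subunit, at 3.36 and 2.67. Of 23 genes of G1/S control, 16 were higher and 3 lower at each label. Tfdp1, the partner of E2F proteins, rose by 2.06 and 1.61. The 3 lower ones were Rbl2 (−1.56 and −1.61), Cdkn1b (−0.98 and −1.03) and Rb1 (−0.50 and −0.47), the last being the retinoblastoma gene, Rbl2 a relative and Cdkn1b the cyclin kinase inhibitor p27; they too were named after their values were seen, except Rbl2 at the KO label. Of 19 genes of the S phase checkpoint and fork repair, 14 were higher and 0 lower at each label (medians 2.64 and 2.09), led by Rad51ap1 at 4.45 and 3.67. At an unadjusted p under 0.05 there were 15 and 14 of the 19, the lowest log2 fold changes were −0.04 and −0.05, and DESeq2 and voom called 0 lower as well. All 21 mitosis markers were higher, with medians of 4.13 and 3.22, above those of the 38 members. Mki67, the proliferation marker, went from a mean of 134 to 1648 CPM at the WT label and from 186 to 1263 CPM at the KO label.

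The comparison of KO with WT label in natural Treg asked how the members differ with the deletion label. Of the 38 members, 2 were called higher in KO-labelled nTreg and 0 lower by edgeR, where 2.18% of all genes were called higher and 0.341% lower. Differences were small: the median log2 fold change was 0.19, against 0.01 for all genes. It was 0.11 without KO-labelled nTreg 1 and 0.28 without KO-labelled nTreg 2. With all libraries 35 of the 38 were positive, as were 51.7% of all genes (47.9% were negative). The groups did not overlap for 8 members, all higher with the KO label, where 15.7% of all genes were higher and 14.1% lower without overlap. These 8 were Orc6, Cdc6, Mcm6, Cdc45, Gins1, Pole, E2f1 and Ccne2. Without overlap and lower there were 0 members. At an unadjusted p under 0.05 there were 11 members (13.4% of all genes), and DESeq2 called 2 higher (2.86% of all genes, with 1.2% lower) and limma voom with quality weights 3 higher (5.27% of all genes, with 3.61% lower), each with 0 members lower.

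Cdc45 had 8.57, 6.94 and 9.86 CPM in WT-labelled nTreg and 19.00, 14.8 and 15.5 in KO-labelled nTreg, means of 8.46 ± 1.47 and 16.4 ± 2.24 (SD, n = 3). Every KO-labelled library was above every WT-labelled one, and library 1 was the highest of the KO-labelled ones. This was a log2 fold change of 0.94 (SE 0.20, adjusted p = 0.025 by edgeR). E2f1 had 8.57, 7.36 and 10.2 CPM in the WT-labelled libraries and 16.1, 13.9 and 14.03 with the KO label, a change of 0.74 (SE 0.16, adjusted p = 0.032 by edgeR). Again the groups did not overlap, and library 2 was lowest at both labels. Cdc45 shares 209 bases of exon with Ufd1 on the other strand; Ufd1, listed as Ufd1l, had 74.1, 76.6 and 73.98 CPM in the WT-labelled libraries and 78.6, 73.9 and 81.03 in the KO-labelled ones. Both calls depended on single libraries. Cdc45 had an adjusted p by edgeR of 0.088 without WT-labelled nTreg 1, 0.13 without WT-labelled nTreg 2, 0.11 without KO-labelled nTreg 1 and 0.061 without KO-labelled nTreg 3, and of 0.046 and 0.05 without WT-labelled nTreg 3 and KO-labelled nTreg 2, where it was still called. E2f1 had 0.12, 0.17, 0.14 and 0.079 in the same order, 0.039 without WT-labelled nTreg 3, and 0.087 without KO-labelled nTreg 2. Without WT-labelled nTreg 1 the single member called was Gins2 (0.70 with all libraries and 1.04 without it). Without both nTreg libraries numbered 2 Cdc45 had 0.21 and E2f1 0.33, and without the 3 libraries with Xist 0.10 and 0.075, so 0 members were called in either case. Fewer genes were called in all there: 0.823% of all genes higher and 0.0247% lower without the libraries numbered 2, and 0.579% and 0.00827% without those with Xist.

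Same-numbered nTreg libraries of the WT and KO label varied together, and a fit with the number as a block called 8 members higher and 0 lower, where 5.36% of all genes were called higher and 3.64% lower in that fit. These were Cdc45 (adjusted p = 0.0012 by edgeR), Mcm10 (0.0049), E2f1 (0.0069), Gins2 (0.014), Pole (0.018), Rrm2 (0.026), Uhrf1 (0.033) and Tyms (0.039). Their blocked log2 fold changes ran from 0.46 for Tyms to 0.95 for Cdc45. With the block and the 6 nTreg libraries alone, 18 members were called higher and 0 lower, where 16.8% of all genes were called higher and 16.6% lower. Number by number, the KO-labelled library was higher for 35, 29 and 33 of the 38 members in pairs 1, 2 and 3, and the summed CPM was 1.15, 1.14 and 1.09 times that of the WT-labelled library. Among all genes tested 49.6% to 51.2% were higher in the KO-labelled library of a pair. Mcm10, picked with its values in view, shows how the pairs ran: it had 8.71, 4.39 and 5.397 CPM in the WT-labelled libraries and 14.4, 8.25 and 8.74 with the KO label, so the KO-labelled library was higher at each number although WT-labelled library 1 overlapped the KO-labelled libraries. By role, the median change was largest for helicase activation (0.54) and S phase entry (0.46) and smallest for the clamp and its loader (0.09), with 0.15 for licensing. Mcm4 (−0.11), Rfc2 (−0.07) and E2f2 (−0.02) were the 3 members with a negative value.

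**Figure D4:**
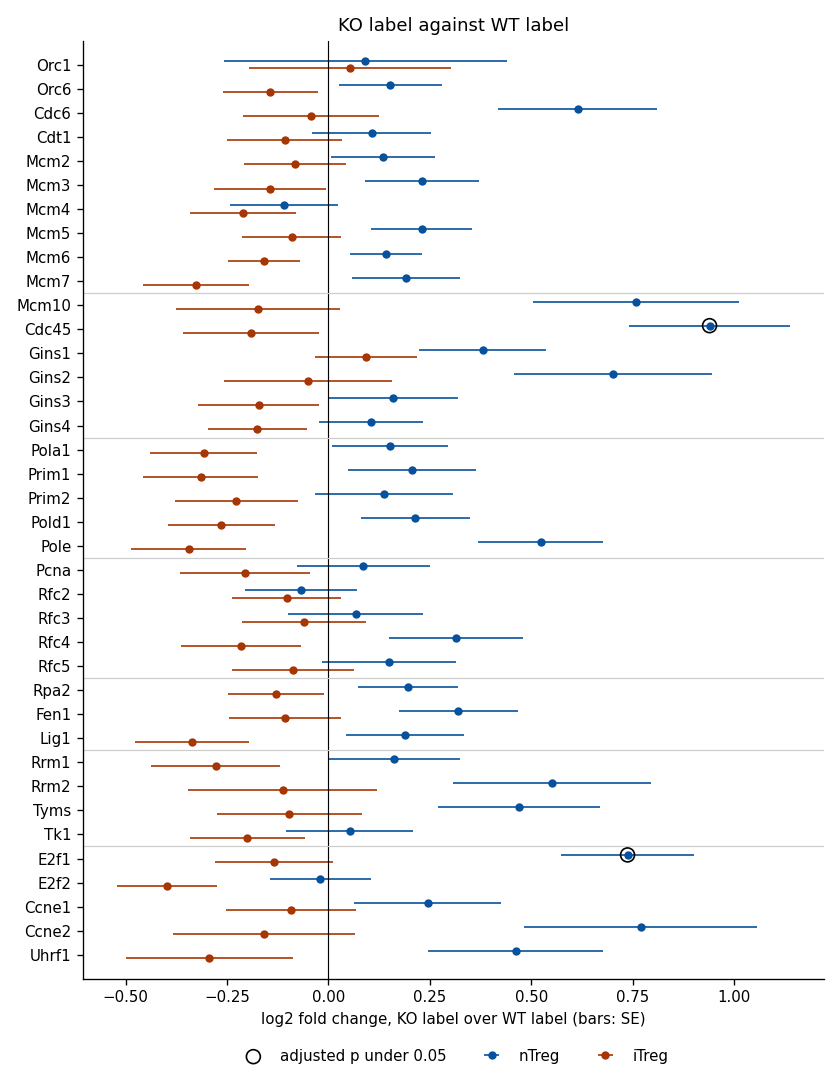
Log2 fold change of each gene with the KO label over the WT label in nTreg (blue) and iTreg (brown), with bars for the SE; rings mark an adjusted p under 0.05 by edgeR. The rings stand at Cdc45 (0.94) and E2f1 (0.74) in nTreg, most other nTreg points lie between 0 and 0.77, and most iTreg points lie between −0.40 and 0.

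In induced Treg 0 of the 38 members were called in either direction by edgeR, where 0.166% of all genes were called higher and 0.0166% lower. An unadjusted p under 0.05 was reached by 6 members (7.56% of all genes), and DESeq2 and voom called 0, where DESeq2 called 0.586% of all genes higher and 0.206% lower and voom 0.216% and 0.0581%. The median log2 fold change was −0.16, against −0.01 for all genes, and 36 of the 38 were negative, as were 52.5% of all genes (47% were positive). The median was −0.25 without WT-labelled iTreg 1, −0.08 without WT-labelled iTreg 2 and −0.08 without the 3 libraries with Xist. Groups did not overlap for 7 members, all lower with the KO label, where 4.95% of all genes were lower and 4.68% higher without overlap: Mcm6, Mcm7, Pola1, Prim1, Rrm1, E2f2 and Uhrf1.

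E2f2 had the smallest p, with 201, 213 and 269 CPM in WT-labelled iTreg and 161, 156 and 200.1 in KO-labelled iTreg. Library 3 was the highest at both labels, and its KO-labelled value of 200.1 was just below the lowest WT-labelled one. The change was −0.40 (SE 0.12, adjusted p = 0.41 by edgeR), and with the replicate block it was −0.40 at an adjusted p of 0.03, the only member called there, where 0.274% of all genes were called lower and 0.673% higher. With the block and the 6 iTreg libraries alone, its adjusted p was 0.30 and 0 members were called, where 0.0174% of all genes were called lower and 0.182% higher. The unblocked change of E2f2 was −0.26 without WT-labelled iTreg 3. Mcm7 had 325, 415 and 377 CPM in the WT-labelled libraries and 308, 299.9 and 283 with the KO label, a change of −0.33 (SE 0.13, adjusted p = 0.59 by edgeR). Its groups did not overlap either. Mcm7 shares 321 bases of exon with Ap4m1 and 64 with Cops6 on the other strand. Pole had 188, 223 and 232 and 168, 147 and 191 CPM (−0.35, SE 0.14, adjusted p = 0.61 by edgeR), and KO-labelled library 3 lay above WT-labelled library 1. Lig1 had 320.1, 429 and 363 and 279, 321 and 281 CPM (−0.34, SE 0.14, adjusted p = 0.62 by edgeR), with overlap as well, and its change was −0.22 without WT-labelled iTreg 2. Number by number, the KO-labelled library was higher for 17, 2 and 1 of the 38 members, with sums of 0.993, 0.810 and 0.842 times the WT-labelled library, and 46.7% to 47.5% of all genes were higher in a KO-labelled library. Pair 1 thus showed no common direction, and pairs 2 and 3 did. In pair 2 the WT-labelled library held Xist and the KO-labelled one did not, and the part of this was not tested. Polymerases and primase had the lowest role median, −0.31, and all 5 of them were negative.

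The difference of the KO label effects, iTreg minus nTreg, was negative for all 38 members, with a median of −0.38 against −0.03 for all genes, of which 54.6% were negative and 45.4% positive. No member was called by edgeR (0 of 38, where 0.274% of all genes were called lower and 0.0166% higher), 15 had an unadjusted p under 0.05 (7.44% of all genes), and DESeq2 called 2 lower (Cdc45 at 0.025 and Pole at 0.033) and voom 1 (Cdc45 at 0.05). DESeq2 called 0.879% of all genes lower and 0.206% higher here, and voom 0.773% and 0.0831%. The smallest p belonged to Cdc45, with 90.2, 130.0 and 106 CPM in WT-labelled and 82.6, 115 and 88.4 in KO-labelled iTreg beside the nTreg values above. Its effects were 0.94 in nTreg and −0.19 in iTreg, a difference of −1.13 (SE 0.26, adjusted p = 0.13 by edgeR). With each library left out in turn, its adjusted p by edgeR ran from 0.049 (without KO-labelled iTreg 2) to 0.38. The difference of Cdc45 ran from −1.28 to −0.98 in these fits. Pole differed by −0.87 (SE 0.21, adjusted p = 0.17 by edgeR), with 28.95, 20.4 and 25.6 CPM in WT-labelled and 41.1, 33.7 and 33.02 in KO-labelled nTreg. E2f1, with 51.2, 66.2 and 50.6 CPM in WT-labelled and 47.6, 56.9 and 48.5 in KO-labelled iTreg, differed by −0.87 (SE 0.22, adjusted p = 0.19 by edgeR). The iTreg groups of E2f1 overlapped, while its nTreg groups did not. Mcm10, with 90.9, 114 and 101 and 87.8, 92.2 and 91.7 CPM in iTreg, differed by −0.93 (SE 0.32, adjusted p = 0.45 by edgeR). With the replicate block 6 members were called, all lower, where 1.46% of all genes were called lower and 0.341% higher: Cdc45 (−1.14, adjusted p = 0.0088 by edgeR), Mcm10 (−0.93, 0.018), Pole (−0.88, 0.02), E2f1 (−0.87, 0.034), Uhrf1 (−0.76, 0.045) and Lig1 (−0.51, 0.046).

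**Figure D5:**
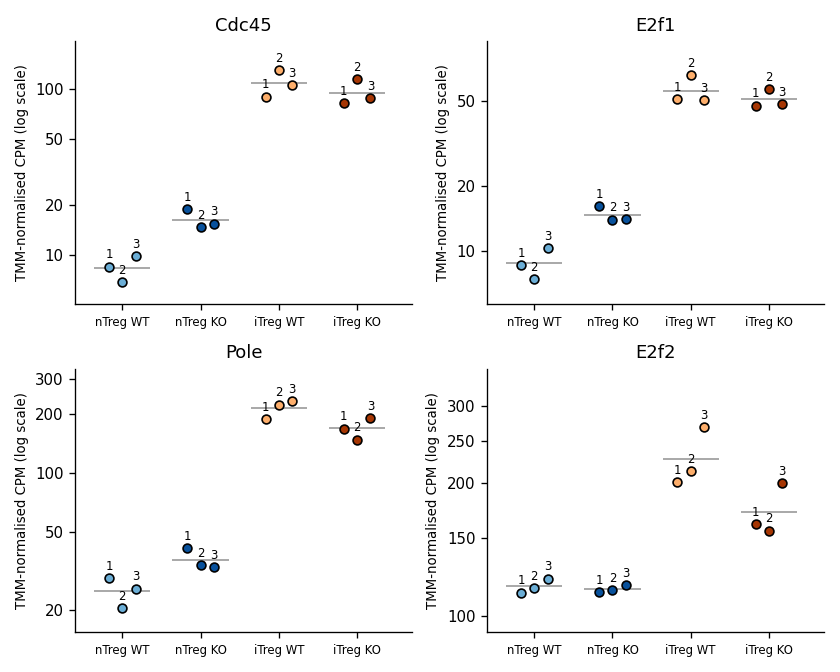
Levels of Cdc45, E2f1, Pole and E2f2 in every library as TMM-normalised CPM on a log scale; numbers are the replicate numbers and grey lines the group means (n = 3). Cdc45 and E2f1 are higher with the KO label in nTreg without overlap, and E2f2 is lower with the KO label in iTreg but nearly level in nTreg.

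Libraries of a group also differed among themselves over the members. WT-labelled nTreg 1 was the highest of its group for 28 members and KO-labelled nTreg 1 for 33, while the libraries numbered 2 were the lowest for 27 and 24. In WT-labelled iTreg, library 1 was the lowest for 34 members and library 2, the one with 2035 CPM of Xist, the highest for 33. KO-labelled iTreg 2, with the lowest Foxp3 (191 CPM), was the highest of its group for 26. Over all genes tested a library was the highest or the lowest of its group for 25% to 40.1%. The nTreg libraries lowest over the members were those with the highest macrophage and myeloid marker sums. In the nTreg libraries numbered 1 the 5 plasma cell markers summed to 62.7 (WT label) and 45.1 CPM (KO label), against 33.3 to 43.8 in the other nTreg libraries. Of these markers Igj, picked with its values in view, had 27.9 and 16.7 CPM there and at most 1.38 in the other nTreg libraries. The part of these differences in the result was not tested.

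The other lists gave 0 calls between the labels by edgeR in either kind of Treg. In nTreg the medians were 0.03 for other replication genes, 0.08 for replication-coupled chromatin, 0.16 for G1/S control, 0.14 for checkpoint and repair and 0.50 for mitosis markers, with 5, 3, 8, 3 and 8 genes at an unadjusted p under 0.05. DESeq2 called 1, 0, 0, 1 and 1 higher and 0 lower in each, in the same order. Voom called 1, 0, 2, 1 and 1 higher and 1 lower, an other replication gene. The blocked fit called 2, 1, 2, 1 and 8 higher, and 2 other replication genes and 1 G1/S gene lower. The smallest p per list belonged to Pold2, a polymerase subunit (0.45, adjusted p = 0.069 by edgeR), Chaf1a (0.50, 0.21), E2f7 (0.71, 0.19), Brca1 (0.70, 0.088) and Foxm1 (0.63, 0.12). All 21 mitosis markers were positive, from 0.18 to 0.73. In iTreg the medians were −0.13, −0.12, −0.07, −0.18 and −0.34, with 6, 0, 1, 3 and 0 genes at an unadjusted p under 0.05, and DESeq2, voom and the blocked fit called 0 in each list. All 21 mitosis markers were negative there, from −0.50 to −0.06. In both kinds of Treg the mitosis markers thus had the same sign as most of the 38 members and a larger median.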

How the data were processed

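RNA of 12 mouse Treg libraries, 3 in each of 4 groups, was analysed from read counts per gene that the authors deposited, 1 table of 23337 symbols per library. Per the submitters' processing notes, cutadapt 1.13, STAR, HTSeq 0.6.1p1, DESeq2 and the build mm10 were used; their roles and order, the annotation and the use of strand are not given in the sources used here.

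Counts were tested with edgeR 4.0.16 (R 4.3.3), TMM-normalised, by the robust quasi-likelihood test; 1 model with the 4 groups as terms was fitted to the 12 libraries, leaving 8 residual degrees of freedom. The edgeR filter (minimum count 10, minimum total 15) kept 12038 genes. Adjusted p is Benjamini-Hochberg over these, two-sided, with a threshold of 0.05 and no fold limit. The SE of an edgeR log2 fold change is its absolute value divided by the square root of the quasi-likelihood F statistic. CPM are TMM-normalised, except the sums of marker genes, Igj, Xist and Ddx3y, which are scaled to the library total alone. Levels per kb use the union of exons of GENCODE M21. The processing notes list no tool for molecular identifiers, so the counts may hold duplicate reads.

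The members and all lists were chosen with earlier results of these data known. Values per library are given for up to 6 called members of smallest p per comparison, or for 4 where none was called, and up to 4 genes of smallest p are named of each other list; members may all be named; Orc1 and E2f2 between the kinds and Mcm10 between the labels in nTreg were given by library with their values in view, and any other gene is marked as picked so.

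Pairing by replicate number was checked on each library's deviations from its group mean. Correlations between same-numbered WT-labelled and KO-labelled libraries were 0.501 to 0.621 in nTreg and 0.326 to 0.652 in iTreg, and those between same-numbered nTreg and iTreg libraries −0.0679 to 0.0967. The numbers were therefore taken to pair the labels within a kind of Treg, and the fit with this block (4 residual degrees of freedom) is given where it changes a call. In iTreg pair 2 the WT-labelled library had 2035 CPM of Xist and 0 of Ddx3y. Its KO-labelled partner had 0 CPM of Xist and 77.4 of Ddx3y. The sex markers thus differed with the label in that pair, and the part of this in the blocked fits was not tested. Alternatives were limma 3.58.1 (voom with quality weights), DESeq2 1.42.0, RLE size factors, a filter at 5 CPM in 3 libraries or none, the block, fits to the 6 libraries compared (blocked or not), and leaving out each library; library totals alone and fits without both nTreg libraries numbered 2 or without the 3 libraries with Xist were added after the data were seen. Python 3.11.15 with matplotlib 3.10.9 drew the figures.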

Additional observations from a re-analysis of the deposited data

How the results depend on the processing

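All 38 members were called higher in iTreg at both labels under every alternative run. The median log2 fold change between kinds at the KO label was 2.05, and 1.95 to 2.13 when each library was left out in turn (lowest without KO-labelled nTreg 2, highest without KO-labelled nTreg 1); without both nTreg libraries numbered 2 it was 1.95. Between the labels the calls moved more. In nTreg, 2 members were called higher, 8 with the replicate block, 18 with the 6 nTreg libraries and the replicate block, 0 to 2 when each library was left out, 0 without both nTreg libraries numbered 2 and 0 without the 3 libraries with Xist. In iTreg, 0 members were called lower, 1 with the replicate block, and 0 with the 6 iTreg libraries and the replicate block. For the difference of the label effects, 0 were called lower, 2 by DESeq2, 1 by limma voom, 6 with the replicate block and 0 to 1 when each library was left out. The cause of these shifts was not tested, but fits without libraries have fewer samples. Pairing by number changed no other call of a member. Of the named members' values under the alternatives, 13 in nTreg were no longer called and 33 kept their side of the threshold, 1 in iTreg and 8 for the difference became called and 91 and 76 kept their side, and all 138 at each label between the kinds did so; no direction turned. A fit of the 6 compared libraries alone was not run for the difference, which needs all groups. The smallest counts, 14 reads for Orc1 in a WT-labelled nTreg library, limit the precision of the nTreg values of the lowest members.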
